A study of Apis mellifera with 18 samples.

Results

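The Malpighian tubules of the honeybee worker carried 58 coding transcripts, from 58 genes, that were at least 10 times as abundant there as in both the brain and the ventriculus. The ventriculus is the midgut, in which food is digested. Abundance was measured by RNA sequencing in CPM (the counts of a transcript per 1000000 counts of its library). The members were chosen on their median CPM over the patrilines P1, P7, P8, P11 and P24: at least 50 CPM in the tubules, at least 10 times the brain median and at least 10 times the ventriculus median. They came from 2287 coding transcripts with a tubule median of 50 CPM or more, among 23458 coding transcripts and 28396 features in all. Vitellogenin, the hexamerins and the cytochrome P450 genes of the CYP6AS subfamily were left out by name, which removed 1 transcript (CYP6AS11) from the 59 that passed the thresholds. Members LOC412209 and LOC112935903 lie between genes that carry CYP6AS names, and 56 members are left without them.

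All 18 libraries came from Apis mellifera workers of Colony 36, with 1 library of the brain, 1 of the ventriculus and 1 of the Malpighian tubules for each of 6 patrilines (P1, P7, P8, P11, P21 and P24), that is, groups of sisters that share a father. Workers were collected at 7 days of age, were each offered 20 µL of 50% sucrose with clothianidin at 4.27 ppb for 4 h on the following day and were frozen 24 h after the feeder was removed. Clothianidin is a neonicotinoid insecticide that acts on nicotinic acetylcholine receptors. Each library is a pool of 5 workers, to which each worker gave 300 ng of RNA, and the same workers gave all 3 tissues of their patriline. Every library was thus exposed, and no unexposed workers were analysed here. A pool gives the mean of its workers and not their spread, and all patrilines share the queen of a single colony.

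Malpighian tubules are blind-ended excretory tubes that open into the gut where midgut and hindgut meet. Their cells drive ions and water out of the haemolymph into a primary urine with the help of proton pumps and ion channels, and move uric acid and foreign organic compounds the same way. In insects the tubules are also known as a site of detoxification enzymes: cytochrome P450 monooxygenases oxidise foreign compounds, and glutathione S-transferases couple them to glutathione, which makes them easier to excrete.

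The depth of the libraries lay between 39722329 and 87946924 counts. Of the marker list for the tubules only the 3 CYP9Q genes could be matched, and 1 of these, CYP9Q2, is itself a member, so the tissue label was checked through the markers of other tissues. The summed level of 4 gut peptidases (2 of aminopeptidase N, serine protease 53 and trypsin) was 29972 to 35975 CPM in the ventriculus and 1417 to 11986 CPM in the tubules, where it was lowest in P24 and highest in P8. The study listed all 4 for differences between patrilines in the tubules, so their spread there was singled out earlier on these same libraries. Nerve genes (14 of 17 listed were matched, among them brp and the nicotinic receptor subunits) summed to 353 to 1176 CPM in the brain, 6.26 to 10.01 CPM in the ventriculus and 10.1 to 109 CPM in the tubules. The 7 royal jelly genes, which mark the hypopharyngeal gland of the head, reached 8519 to 281053 CPM in the brain, with P11 and P21 the highest. In the tubules they summed to 13753 CPM in P21 and 182 to 1847 CPM in the others, and P21 also had the highest nerve sum there (109 CPM). Venom gland genes summed to 7815 CPM in the P7 ventriculus and 0.381 to 272 CPM in the other 5. In the tubules they reached 499 CPM in P7 and 654 CPM in P11. The 3 eye genes summed to 473 to 1148 CPM in the tubules, 15.3 to 36.6 CPM in the ventriculus and 574 to 9809 CPM in the brain. In the tubules fat body genes summed to 159 to 2450 CPM and muscle genes to 75.4 to 462 CPM, both highest in P11. The part of these other tissues in the tubule libraries was not tested. The brain library of P21 stood apart for the tubule transcripts themselves, as described below, and it had no part in the choice of members.

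Together the 58 transcripts made up 10.9% to 14.9% of all counts in the tubules. Their sum was 144236 CPM in P1, 146791 in P7, 108691 in P8, 133613 in P11, 110716 in P21 and 149410 in P24. P8 and P21 were thus the lowest tubule libraries, and both were also among the 3 with the most gut peptidase counts, with 11986 CPM in P8 and 7024 CPM in P21 against 10497 CPM in P1 and 1417 to 2809 CPM in P7, P11 and P24. These peptidases are on the study's list of patriline differences in the tubules, so their order here is not independent of that choice. The part of the gut transcripts in these sums was not tested. In the ventriculus the sum was 6629 CPM in P1, 4587 in P7, 6533 in P8, 8869 in P11, 7113 in P21 and 3819 in P24. In the brain it was 2587 to 4197 CPM in 5 libraries and 26350 CPM in P21. In such bulk samples fewer cells of a type and less RNA per cell cannot be told apart.

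**Figure D1:**
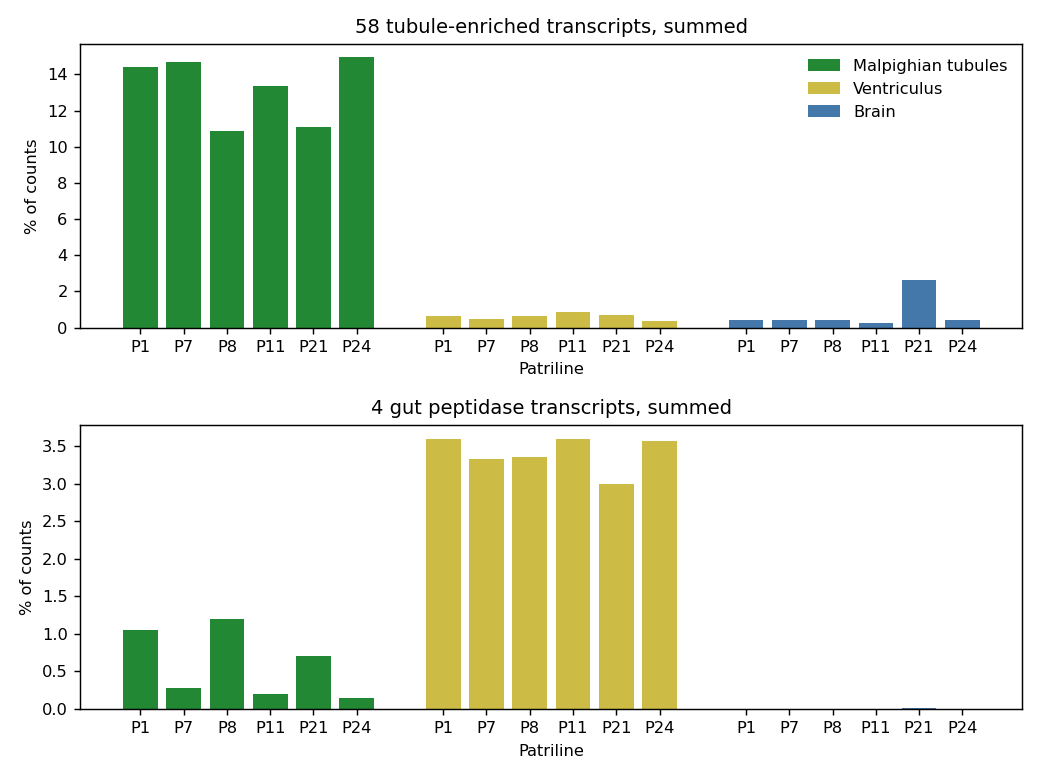
Summed counts of the 58 transcripts (top) and of 4 gut peptidase transcripts (bottom) as a percentage of all counts, with 1 bar per library and both axes starting at 0. The tubule libraries hold 10.9% to 14.9% of counts in the 58 transcripts, and among the brain libraries P21 stands out with 26350 CPM.

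A few transcripts dominated this sum. The 12 members with the highest tubule levels made up 72.2% of the summed tubule medians. Across the list, 25 members had a tubule median of 1000 CPM or more, 27 lay between 100 and 1000 CPM and 6 were below 100 CPM. CPM is not corrected for transcript length, so these figures are shares of counts and give no order of molecules per cell.

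**Figure D2:**
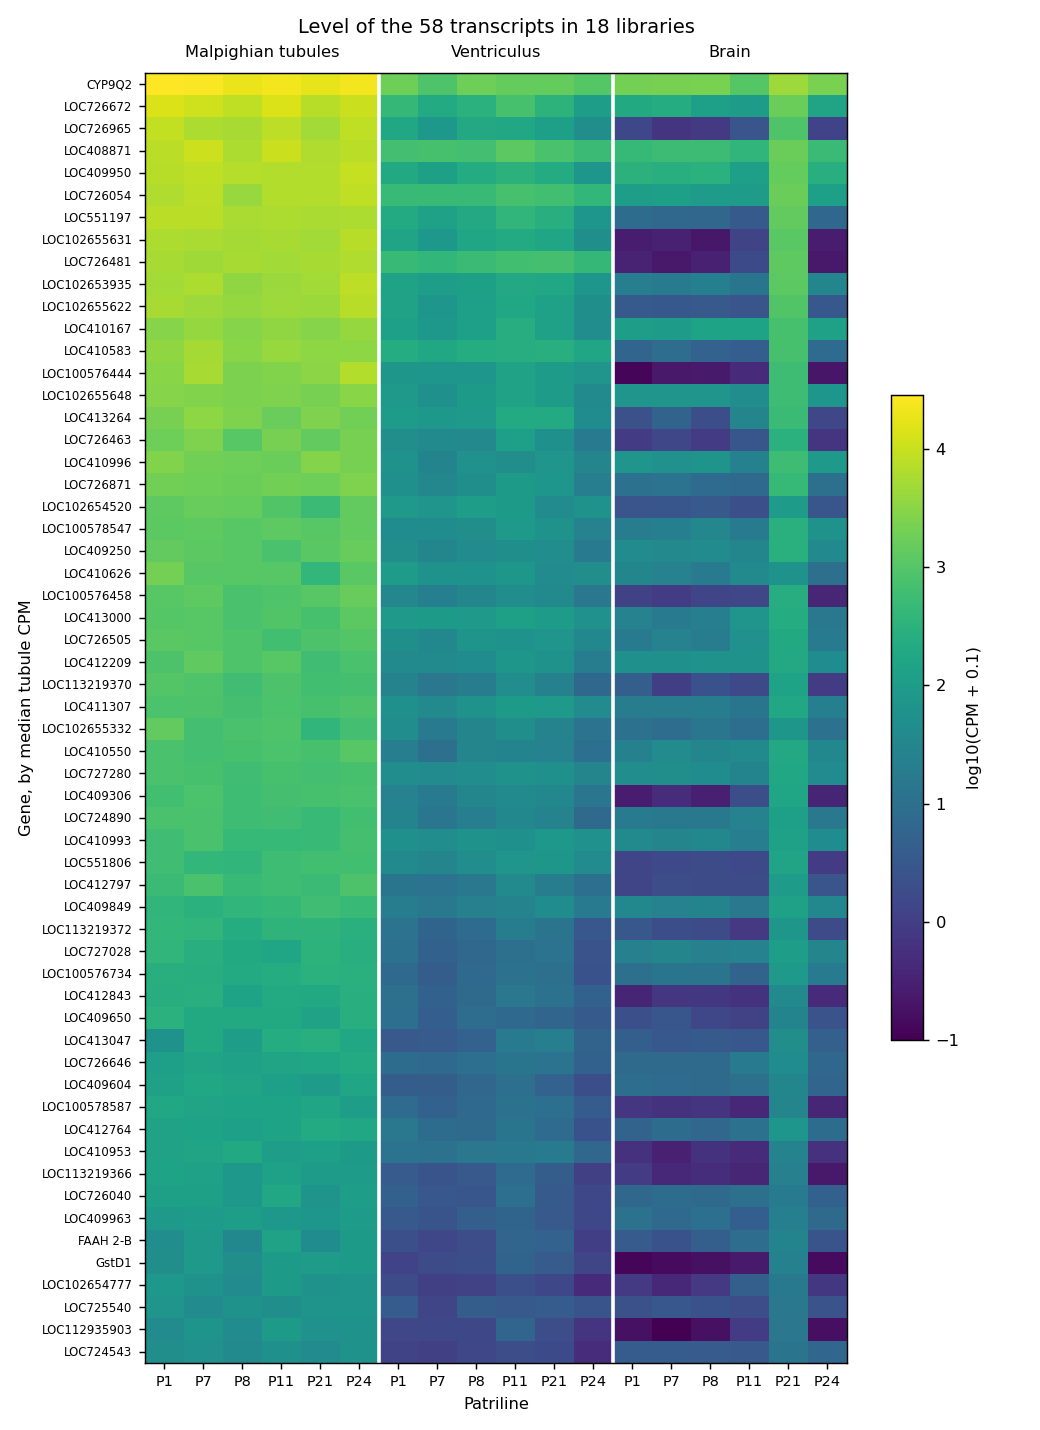
Level of each of the 58 transcripts (rows, from the highest to the lowest median tubule CPM) in the 18 libraries (columns), coloured by log10(CPM + 0.1). The tubule columns are the brightest in each row, and the brain column of P21 is brighter than the other 5 brain columns in all 58 rows.

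Only 3 members have a name in the sources used here, and 2 of them encode detoxification enzymes. The first is CYP9Q2 (XM_392000.7), a P450 of the subfamily that metabolises several neonicotinoids and other insecticides in the honeybee. Its level in the tubules was 28213 CPM in P1, 25699 in P7, 19178 in P8, 23137 in P11, 17356 in P21 and 22920 in P24. The ventriculus had 870 to 1803 CPM and the brains other than P21 had 1053 to 2277 CPM. The highest of the tubule libraries was P1 and the lowest P21, and no library of another tissue came near them. With medians of 23137, 1463 and 2112 CPM in tubules, ventriculus and brain, CYP9Q2 passed the brain threshold narrowly, at 10.96 times the brain median, and stood at 15.8 times the ventriculus median.

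Its relatives CYP9Q1 and CYP9Q3, which share the insecticide-metabolising role, were abundant in the tubules but were not members. CYP9Q1 had a median of 6706 CPM in the tubules, 7030 CPM in the ventriculus and 67.0 CPM in the brain, so that it failed the ventriculus threshold. CYP9Q3 had medians of 5470 CPM in the tubules, 421 CPM in the ventriculus and 955 CPM in the brain, so that it missed the brain threshold at 5.73-fold. Its tubule level ran from 1484 CPM in P21 to 13082 CPM in P7, and its brain level from 693 CPM in P21 to 1043 CPM in P7. The P450 list, drawn from gene symbols and the accessions of the study, held 11 genes with 28 transcripts, of which 13 had counts, 5 reached 50 CPM in the tubules and 1 was a member. Among those 5 were CYP6AS11 (4379 CPM) and CYP6AS13 (1848 CPM), which were left out by name and could not become members. CYP6AS11 passed the thresholds, and CYP6AS13 was 1.42 times the brain median. P450 genes with neither a symbol nor an accession in the study are missing from the list.

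The second named member is a transcript of GstD1 (XM_006563331.3), a delta-class glutathione S-transferase. It reached 48.9 CPM in the P1 tubules, 82.7 in P7, 49.4 in P8, 94.6 in P11, 98.7 in P21 and 91.6 in P24, a mean of 77.7 ± 22.7 (SD, n = 6). In the ventriculus it lay between 1.14 and 5.59 CPM, and in the 5 brains other than P21 it had 15 counts in all, at most 0.152 CPM in a library. The transcript was thus close to undetected in those brains. Another transcript of the gene, XM_026445267.1, followed the same order at a lower level, with medians of 18.6 CPM in the tubules, 0.932 CPM in the ventriculus and 0.0388 CPM in the brain. The transcript NM_001178028.1 had 1.99 CPM in the tubules, 1.92 CPM in the brain and 0.216 CPM in the ventriculus, so that it was 9.18 times as high in the tubules as in the ventriculus and 1.04 times as high as in the brain. Of the 8 glutathione S-transferase transcripts listed (3 genes), 7 had counts and only this GstD1 transcript was a member.

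The last named member is fatty-acid amide hydrolase 2-B (LOC551094, XM_026444401.1), named for an enzyme family that splits fatty acid amides, a class of lipid signals. It is also the only member among the transcripts that the study listed for differences between patrilines, so it was singled out earlier on these same libraries. Its tubule level was 47.2 CPM in P1, 86.5 in P7, 34.7 in P8, 135 in P11, 45.1 in P21 and 94.7 in P24, a mean of 73.8 ± 38.5 (SD, n = 6). P11 was the highest and P8 the lowest, 3.89-fold apart. The ventriculus ranged from 0.926 to 5.82 CPM and the brains other than P21 from 2.23 to 8.86 CPM, with the highest value of the 5 used patrilines again in P11 in both tissues.

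The other 55 members are known only by LOC numbers, and the sources used here give them no function. They include the rest of the 12 members with the highest levels. LOC726672 (XM_026441301.1) lay between 7281 CPM in P21 and 14826 CPM in P1 in the tubules, between 107 and 729 CPM in the ventriculus, and between 96.5 and 235 CPM in the brains other than P21. LOC726965 (XM_006563652.3) lay between 4857 CPM in P21 and 8763 CPM in P1 in the tubules, between 49.4 and 198 CPM in the ventriculus, and between 0.587 and 2.66 CPM in those brains. Both had their lowest tubule value in P21 and their highest in P1.

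Some of these genes were nearly silent in the brain. LOC102655631 (XM_026444448.1) had 5062 to 7411 CPM in the tubules and 52.2 to 214 CPM in the ventriculus, and LOC726481 (XM_001122213.5) had 4664 to 6425 CPM and 398 to 686 CPM. In the 5 brains other than P21 the former had 84 counts in all and the latter 104. LOC100576444 (XM_003250037.4) had 2367 CPM in P8 to 6553 CPM in P24 in the tubules, 68.9 to 136 CPM in the ventriculus and 34 counts over the same 5 brains. Other members of the abundant group were clearly present in the brain: LOC408871 (XM_392401.7) had 6080 to 10936 CPM in the tubules and 386 to 546 CPM in those brains, and LOC409950 (XM_006558101.3) had 6548 to 9400 CPM and 117 to 314 CPM. As a share of its own tubule level, the brain median was 0.00274% for LOC102655631, 0.00415% for LOC726481 and 0.00466% for LOC100576444, against 6.68% for LOC408871 and 3.77% for LOC409950.

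The brain and the ventriculus thus differed in how they carried the list. Expressed as a percentage of the tubule median, the ventriculus median lay between 1.68% and 9.16% over the 58 members, with a middle value of 3.30%. The brain median lay between 0.00274% and 9.89%, with a middle value of 1.69%. The upper ends are set by the rule, which allows no more than 10%, but the lower ends are not. In the brain 25 members were below 1% of their tubule level and 12 were at 5% or more, whereas no member fell below 1.68% in the ventriculus.

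Within the ventriculus the members' levels differed from library to library. The median of the 58 percentages, taken against the tubules of the same patriline, was 3.63% in P1, 2.12% in P7, 4.09% in P8, 6.27% in P11, 4.82% in P21 and 1.33% in P24. Of the 58 members, 40 had their highest ventriculus CPM in P11 and 45 their lowest in P24. The share of all transcripts that followed this order was not counted, so these counts do not show whether the order is particular to the members. Gut peptidases summed to 35975 CPM in the P11 ventriculus and 35605 CPM in that of P24. How much tubule tissue each ventriculus sample held was not tested.

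**Figure D3:**
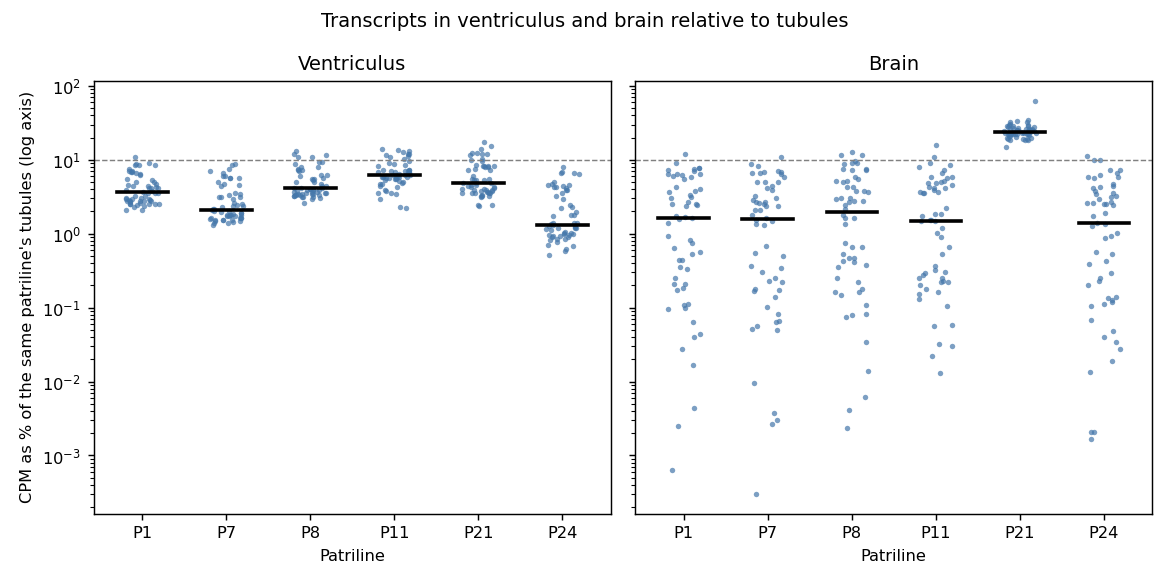
CPM of each of the 58 transcripts in the ventriculus (left) and the brain (right) as a percentage of the tubules of the same patriline, on a log axis, with a bar at the median and a dashed line at 10%. The brain points of P21 sit between 15.0% and 63.0%, while in the other brains they spread over several orders of magnitude; LOC112935903 had 0 counts in the P7 brain, which allows up to 0.0705 CPM (3 counts), and is drawn near the lower edge.

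The patriline P21 was not used to choose the members, so its libraries give the same ratios anew, with 1 library against 1 and no replicate. Between the P21 tubules and the P21 ventriculus, 49 of the 58 members were at least 10-fold higher in the tubules, where 7.74% of 2518 coding transcripts with 50 CPM or more in the P21 tubules were. The ratios of the members ran from 5.83 to 41.9 with a median of 20.7. The lowest were those of LOC410993 (5.83), LOC410953 (6.52) and LOC413000 (7.04). When the libraries were scaled by TMM factors, which set most transcripts equal between tissues, the count was 27, since these factors changed the tubule to ventriculus ratio of P21 by −1.13 on the log2 scale for every transcript.

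Against the P21 brain the picture was different: none of the 58 reached 10-fold (0 members, where 1.47% of the 2518 transcripts did). The ratios ran from 1.59 for fatty-acid amide hydrolase 2-B through 2.87 for LOC412764 and 2.99 for LOC727028 up to 6.66, with a median of 4.19. All 58 were nonetheless highest in the tubules within P21. Each of the 58 was also higher in the P21 brain than in any of the other 5 brains, by a median of 12.1-fold over the median of those 5. The rule had required low medians in those 5 brains and did not use P21, so this count is not independent of the choice of members. The shares of all transcripts that were higher in the P21 brain than in the others, or that were highest in the P21 tubules, were not counted.

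The members in the P21 brain lay in a narrow band relative to the tubules of the same workers. They stood at a median of 23.9% of the P21 tubule level (interquartile range 22.1% to 26.5%). The 25 members with less than 1% of their tubule level in the other brains lay between 18.3% and 25.6%. LOC726481 had 1243 CPM in the P21 brain against 0.133 to 1.55 CPM in the other 5, and GstD1 had 25.2 CPM against 0.0194 to 0.152 CPM. For CYP9Q2, which the other brains also carried, the P21 brain had 4556 CPM. Gut peptidases summed to 91.0 CPM in the P21 brain against 3.03 to 6.65 CPM in the other brains, which is 1.30% of their level in the P21 tubules. Its nerve genes summed to 353 CPM, the lowest of the 6 brains, followed by 371 CPM in P11 and 856 to 1176 CPM in the other 4. The part of tubule tissue in this library was not tested.

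Whether the members were higher in the brain or in the ventriculus was tested over the 10 libraries of the 5 patrilines other than P21. The test was edgeR's quasi-likelihood test with Benjamini-Hochberg adjustment over 9955 transcripts. The rule did not set which tissue was higher, but it capped both at 10% of the tubule median in these same libraries. The transcripts tested as a whole had no such cap, so the shares given for them are not a like background. Of the 58 members, 52 were higher in the ventriculus, where 36.3% of all transcripts tested were, and 0 were higher in the brain, where 42.9% of all were. DESeq2 also called 0 members higher in the brain, and 0 were so in edgeR at an unadjusted p under 0.05. The median log2 fold change of ventriculus over brain was 3.11 for the members and −0.14 for all transcripts.

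This count depended on how the libraries were scaled and on P21. The TMM factors raise the ventriculus over the brain, and with library size alone the median of all transcripts moved to −1.89, with 9.58% of transcripts higher in the ventriculus and 80% higher in the brain. On that scale 34 members were higher in the ventriculus and 4 in the brain, with a member median of 1.51, and 16 had a log2 fold change below 0. With TMM, 57 of the 58 lay above the median of all transcripts. Library size alone gave the same count, which adds nothing, since scaling shifts all transcripts by about the same amount. With the P21 libraries added, 9 members were called higher in the ventriculus, where 35.8% of all transcripts were, and 0 higher in the brain, where 43.3% were.

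**Figure D4:**
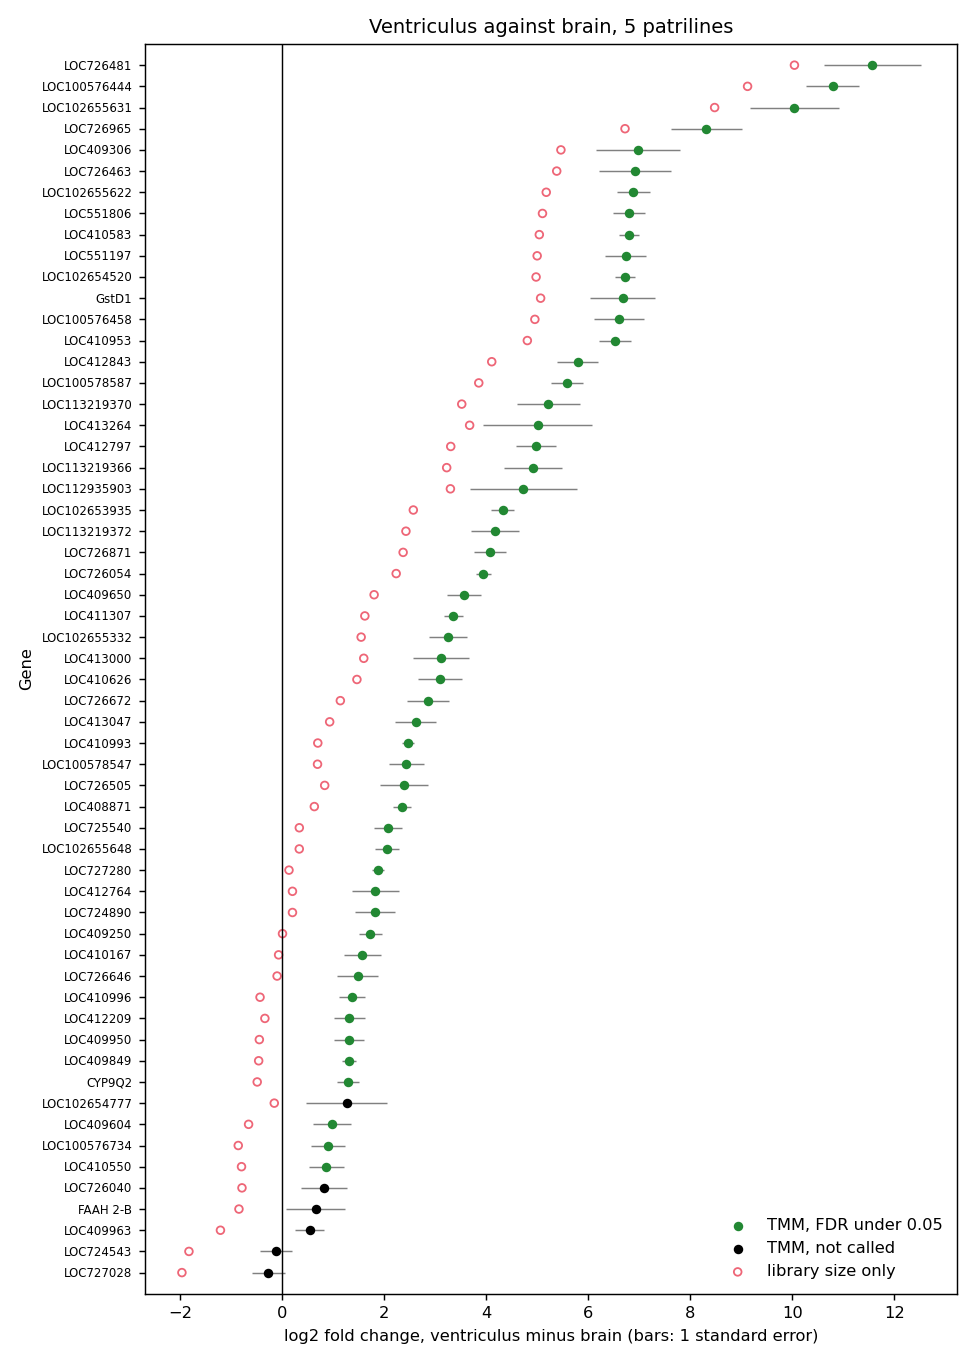
Log2 fold change of ventriculus over brain for each of the 58 transcripts over 5 patrilines (filled points with TMM scaling, bars 1 standard error; open points with library size alone). With TMM 52 points lie right of 0 and pass an adjusted p of 0.05, while on the open points 16 members lie left of 0.

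The 5 largest log2 fold changes were those of members with few counts in the brain. LOC726481 had 461 CPM in P1, 398 in P7, 509 in P8, 645 in P11 and 417 in P24 in the ventriculus, and 0.233, 0.141, 0.223, 1.55 and 0.133 CPM in the brains of the same patrilines. The groups did not overlap, and the log2 fold change was 11.57 (SE 0.942, edgeR quasi-likelihood adjusted p = 6.14e-07). LOC100576444 followed with 10.79 (SE 0.516), LOC102655631 with 10.04 (SE 0.873), LOC726965 with 8.32 (SE 0.690) and LOC409306 with 6.98 (SE 0.828). Without P11, whose brain had the highest value of the 5 for LOC726481, LOC102655631 and LOC409306, their log2 fold changes were 13.09, 11.27 and 8.28. The small prior count that edgeR adds to these few brain counts was not varied. The member transcript of GstD1 had a log2 fold change of 6.68 (SE 0.644, edgeR adjusted p = 2.46e-06). With the P21 libraries added it was 0.54 (edgeR adjusted p = 0.740), and with counts summed per gene, without P21, it was 2.46 (edgeR adjusted p = 0.000122).

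CYP9Q2 gave an answer that changed with the scale. Its CPM was 1803 in P1, 870 in P7, 1801 in P8, 1463 in P11 and 1007 in P24 in the ventriculus, and 2087, 2112, 2211, 1053 and 2277 in the brains of the same patrilines. The brain was thus higher in 4 of 5 patrilines as a share of counts, and the groups overlapped. With TMM scaling the log2 fold change was 1.29 in favour of the ventriculus (SE 0.208, edgeR adjusted p = 0.000152), and with library size alone it was −0.49 (adjusted p = 0.0913). LOC409950, LOC410167 and LOC409849 changed sign in the same way.

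The 6 members that were not called were LOC727028, LOC724543, LOC409963, LOC726040, LOC102654777 and fatty-acid amide hydrolase 2-B, with log2 fold changes between −0.27 and 1.27. LOC727028 (XM_001122741.5) had 2.37 to 10.4 CPM in the 5 ventriculus libraries and 23.5 to 30.3 CPM in the brains. With a tubule median of 266 CPM it was also the member nearest the brain threshold, at 10.1-fold. Fatty-acid amide hydrolase 2-B had a log2 fold change of 0.66 (SE 0.580, edgeR adjusted p = 0.311). With the patriline as a block, which is the fit that uses the pairing of tissues, 53 members were called. That fit added fatty-acid amide hydrolase 2-B (adjusted p = 0.00403), LOC726040 (0.0143) and LOC102654777 (0.0156), and it lost LOC410550 (0.0502) and LOC100576734 (0.114).

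Of the detoxification lists, 8 P450 transcripts could be tested between brain and ventriculus, of which 4 were higher in the ventriculus and 3 in the brain, beside 36.3% and 42.9% of all transcripts. CYP9Q1 was among the former, with a log2 fold change of 8.56 (SE 0.538), and CYP9Q3 was not called, at 0.35 (SE 0.345, edgeR adjusted p = 0.363). For the glutathione S-transferases 5 transcripts were tested, with 4 higher in the ventriculus and 1 in the brain beside the same shares, the latter being NM_001178028.1 of GstD1 with −1.27 (SE 0.342). The member GstD1 transcript and this one thus lay on opposite sides, although both come from a single gene.

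Among the tubule libraries the members had a larger spread than other transcripts of similar minimum level, described here without a test. The SD of log2(CPM + 0.5) over the 6 patrilines had a median of 0.326 for the members (interquartile range 0.239 to 0.389) and 0.147 for the 2287 coding transcripts with 50 CPM or more in the tubules (0.105 to 0.231). The biological coefficient of variation that edgeR estimated over the same libraries had a median of 0.266 for the members and 0.258 for all 7760 transcripts tested. Those 7760 were not limited to 50 CPM or more, so this background is unlike the one used for the SD. With 1 library per patriline, differences between patrilines and differences between pools or dissections cannot be told apart. The highest and lowest tubule libraries of a member differed by a median of 1.78-fold, and 39 members stayed under 2-fold. P24 held the highest tubule value of 19 members, P1 of 14, P7 of 12, P21 of 7, P11 of 4 and P8 of 2. The lowest value was in P8 for 26 members and in P21 for 17, the libraries with the lowest sums. The P21 tubules were also the library with 13753 CPM of royal jelly genes, whose part in these values was not tested.

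By the SD of log2(CPM + 0.5), the widest spread was that of LOC413047 (XM_006568066.3), with 61.5 CPM in P1, 202 in P7, 115 in P8, 239 in P11, 263 in P21 and 183 in P24. P1 was the lowest and P21 the highest, 4.28-fold apart. LOC410626 (XM_016916549.2) had 2007 CPM in P1, 1058 in P7, 1080 in P8, 1106 in P11, 415 in P21 and 1138 in P24, a range of 4.84-fold, the widest of the 58 by that measure. P21 stood below the rest and P1 above them. LOC102654520 (XM_016917117.2) and LOC102655332 (XM_006559813.3) also had their lowest values in P21, at 519 CPM against 916 to 1519 CPM and at 389 CPM against 654 to 1354 CPM. LOC410626, LOC102654520 and LOC102655332 thus had their minimum in the P21 tubules, while LOC413047 had its maximum there.

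The most even members were LOC411307, LOC727280, LOC100578547, LOC726481 and LOC102655648. LOC411307 (XM_394781.7) had 793 CPM in P1, 828 in P7, 698 in P8, 826 in P11, 722 in P21 and 850 in P24. Its highest and lowest libraries differed by 1.22-fold, the smallest ratio of the 58 members.

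**Figure D5:**
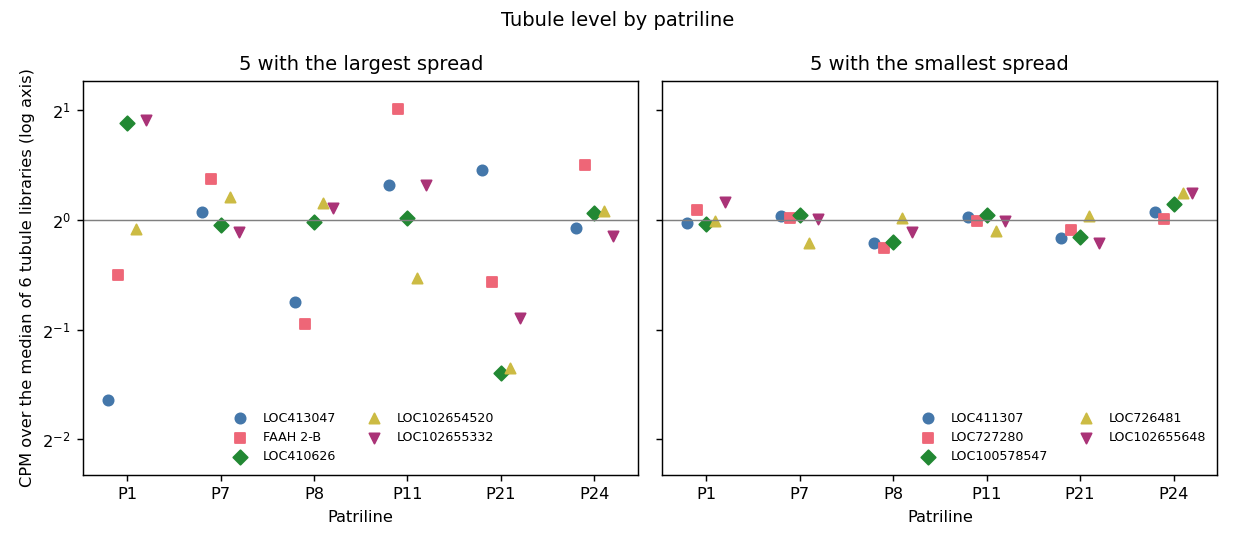
Tubule CPM by patriline divided by the median of the 6 tubule libraries, on a log axis, for the 5 members with the largest (left) and the 5 with the smallest (right) SD of log2(CPM + 0.5); each symbol is 1 library. LOC410626, LOC102654520 and LOC102655332 are lowest in P21, LOC413047 is lowest in P1, and all symbols on the right lie close to the line.

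Most members came from genes with a single transcript, but less often than all coding transcripts of the same minimum level. Of the 58 genes, 46 (79.3%) have a single annotated transcript, against 51.0% of 9935 protein-coding genes and 92.9% of the 2287 coding transcripts with 50 CPM or more in the tubules. Fragments shared by several transcripts of a gene were left uncounted as ambiguous, so the counts of the other genes are incomplete. The other 12 genes have 31 further transcripts, of which 11 reached 1 CPM in the tubules and 9 of these were higher in the tubules than in both other tissues. LOC409963 was the exception in level: its other transcript, XM_393453.7, had medians of 2993 CPM in the tubules, 588 in the brain and 105 in the ventriculus, whereas the member transcript had 103 CPM in the tubules. For LOC725540 the transcript XM_001121373.5 was a brain form, with 41.5 CPM in the brain and 3.47 CPM in the tubules, against 63.7 CPM in the tubules and 2.30 CPM in the brain for the member. Summed per gene, both genes were higher in the brain than in the ventriculus, with log2 fold changes of −0.76 for LOC409963 (edgeR adjusted p = 0.00554) and −1.67 for LOC725540 (edgeR adjusted p = 8.02e-05).

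The members were scattered over the genome. By the gene order of the assembly Amel_HAv3.1, 55 lie on 15 of the 16 linkage groups and 3 on unplaced scaffolds (LOC113219366, LOC113219370 and LOC113219372). Only 2 pairs are direct neighbours among coding genes, LOC726463 with LOC726481 and LOC727028 with LOC412764, and 6 pairs have fewer than 10 coding genes between them. LOC726463 had medians of 2106 CPM in the tubules, 38.3 CPM in the ventriculus and 0.817 CPM in the brain, and its neighbour LOC726481 had 5362, 461 and 0.223 CPM. Both were thus far lower in the brain than in the ventriculus.

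Close to the thresholds the choice of members rested on small differences. The members nearest the limit of 50 CPM were LOC724543 with 54.5, LOC112935903 with 63.2 and LOC725540 with 63.7 CPM, and just outside were LOC409001 with 44.2, LOC551544 with 43.1 and LOC408697 with 38.5 CPM. At the brain limit LOC727028 (10.1-fold), CYP9Q2 (10.96-fold) and LOC409849 (13.3-fold) were inside, and LOC100578121 (9.93-fold), LOC409066 (9.93-fold) and Argk (9.70-fold), the arginine kinase that buffers ATP, were outside. At the ventriculus limit LOC410993 (10.9-fold), LOC726481 (11.6-fold) and LOC408871 (11.7-fold) were inside, and LOC411296 (9.61-fold), LOC410920 (9.45-fold) and LOC410517 (8.93-fold) were outside.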

How the data were processed

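RNA of 18 pools was sequenced as paired reads of 100 bp after a stranded total RNA preparation. Per the labels and the methods of the study, the authors used Trimmomatic for trimming, STAR for alignment and HTSeq for counting fragments per transcript, and the deposited values are these raw counts. The study names the genome Amel_4.5, whereas 27887 of the 28396 feature names match a RefSeq table of Amel_HAv3.1, so no coordinates are given. No source used here gives versions or the strand setting, and overlapping or antisense genes may share reads. HTSeq's 5 classes of uncounted fragments were left out: 30.9% to 50.3% of fragments were ambiguous, 6.26% to 17.6% had no feature and 1.47% to 2.76% aligned to several places, so transcripts of a gene and near-identical paralogs are uncertain.

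CPM was computed from the summed counts of each library. The members and lists were chosen with earlier results of these data known, and the genes left out by name were recognised by RefSeq symbol or synonym. Brain and ventriculus were compared with edgeR 4.0.16 (R 4.3.3; filterByExpr with minimum count 10 and minimum total count 15, TMM, glmQLFit and glmQLFTest, Benjamini-Hochberg threshold 0.05), without P21 and without a block. The SE was derived from the log2 fold change and its statistic. With 5 pools a group, the pools and not the depth limit the precision. By the methods of the study, the same workers gave every tissue of their patriline, which pairs the libraries; the deviations of the 2 tissues correlated between 0.0911 and 0.213, each best with its own patriline. On simulated data of 9955 transcripts for this comparison, 53 of 100 transcripts changed 2-fold, 85 of 100 changed 4-fold and 6 of 9755 unchanged ones were called. The changed transcripts went up and down in equal numbers, and all others had equal means in both tissues. In the data 7885 of 9955 transcripts were called, so the simulated rates do not bear on the scaling between tissues. DESeq2 1.42.0 was an alternative; the one without the 2 transcripts between CYP6AS genes was chosen after seeing the data.

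The transcripts named are the 12 with the highest tubule median, those with a name, the 5 called with the largest log2 fold change, the 5 with the largest and the 5 with the smallest SD in the tubules, the 3 on each side of each threshold and the 3 lowest ratios in P21. Members not called, neighbours, the 2 between CYP6AS genes and genes whose call changed were named after their values were seen. Patrilines were not grouped by tolerance, since the labels do not give it. Planned sequence features and lists that need product names were not analysed here.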

Additional observations from a re-analysis of the deposited data

Results flagged for a closer look

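In the brain, the P21 library lay far from the other 5 in the sum of the 58 transcripts (26350 CPM) and in their median percentage of the tubule level (23.9%), by a gap to the nearest library of more than 0.625 of the whole range. Of the 16 members examined this way in each tissue, the same library stood apart for 15, each time as the highest: CYP9Q2 (4556 CPM), LOC726481 (1243), LOC102655631 (1141), LOC726965 (911), LOC100576444 (586), LOC102655648 (567.6), LOC100578547 (289), LOC727280 (186), LOC411307 (173), LOC409306 (161), LOC102654520 (102), LOC102655332 (77.1), LOC413047 (48.7), fatty-acid amide hydrolase 2-B (28.4) and GstD1 (25.2). The exception was LOC410626, with 62.3 CPM in the P21 brain and 10.04 to 39.1 CPM in the others. In the ventriculus and the tubules 0 of the values examined stood apart. In all, 53 groups of 6 libraries were examined. A rate of 1 in 20 would mark about 2.65 of them, but it cannot be set against the brain marks. The members were chosen for low medians in the other 5 brains, and earlier results of these data had already shown tubule transcripts in the P21 brain. Members measured in a single library are also not independent of each other.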

How the results depend on the processing

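The number of members was 108 with 5-fold and 34 with 20-fold thresholds, 58 to 65 without each replicate in turn, and 43 with TMM-scaled CPM, of which 38 were among the 58. In P21, 27 members were at least 10-fold over the ventriculus with TMM scaling, and 9 were at least 5-fold over the brain. The spread over the tubules was 0.281 without P8 and 0.281 to 0.332 over all replicates left out. Between brain and ventriculus, library size alone gave 34 members higher in the ventriculus and 4 higher in the brain, adding P21 gave 9 higher in the ventriculus, and counts per gene gave 51 and 2. Leaving out each replicate gave 49 to 53 and 0. DESeq2, RLE factors, no filter and tubule libraries in the fit each gave 52 and 0, and the patriline block (pairing) gave 53 and 0, with no change of call beyond the 5 given above. With library size alone the sign turned for 14 of the 58 members, among the 33 named ones for 5: CYP9Q2 (−0.49), LOC409950 (−0.45), LOC410167 (−0.068), LOC409849 (−0.46) and fatty-acid amide hydrolase 2-B (−0.85, and −0.19 with P21). Among the named ones it also turned with counts per gene for LOC725540 (−1.67) and without P24 for LOC724543 (0.23, lowest −0.27). Over the named members and all alternatives, 390 of 429 values kept their direction and side of the threshold. The TMM factors, which are estimated from these counts, raise the ventriculus against the brain. Other causes were not tested. The number of pools, and ambiguous fragments, limit these values.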
